A study of Mus musculus with 12 samples.

Results

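Chil3 and Chil4 are the mouse genes of the chitinase-like proteins Ym1 and Ym2, and they were followed here in CD11c+ lung cells treated with recombinant RELMa (resistin-like molecule alpha). Both were taken by symbol from a NanoString table, in which they were 2 of 754 endogenous genes, and both passed the count minimum that left 415 genes for testing. CD11c is carried by both alveolar macrophages and dendritic cells, and the cells had been sorted from lungs of RELMa-/- mice 10 days after infection with 500 L3 larvae of Nippostrongylus brasiliensis, a nematode that passes through the lung. All cells spent a night in culture and were then starved in medium with 1% serum, for 1 h by one label and 2 h by another. They received 500 ng/ml recombinant RELMa (rRELMa) or PBS for 4 h, and about 5000 cells per sample were counted with the nCounter Myeloid Innate Immunity Panel, which counts a colour barcode for each bound target RNA. The 4 groups of 3 samples were rRELMa and PBS in run 2, and rRELMa and PBS in run 1. All samples shared the RELMa-/- genotype and the infection, so no group held uninfected mice or mice that make RELMa. The labels do not say what separates the runs, how many mice or pools gave the cells, or whether numbered samples were separate cultures, so the p-values rest on a spread among samples that could be technical.

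Chitinase-like proteins keep the fold of the chitin-cleaving glycosyl hydrolases but lack their enzymatic activity. Ym1 is secreted in large amounts by mouse alveolar macrophages and by macrophages exposed to IL-4 or IL-13, where signalling runs through the IL-4 receptor alpha chain and the transcription factor STAT6, and it can crystallise in inflamed airways. Ym2 is its close paralog and is known from allergic mouse lung. In helminth infection Chil3, Retnla (the gene of RELMa) and Arg1 (arginase 1) are the usual markers of alternatively activated macrophages in mice.

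The genes lie next to each other on mouse chromosome 3, with 0 annotated genes between them in the RefSeq gene table of GRCm38.p6, and their promoters are near copies. The stretches below are shown because they display how little separates the control regions of the members. They are the parts of the RefSeq promoter windows (GRCm38.p6) that lie before both annotated starts in the alignment, at chr3:106167565-106167786 for Chil3 and chr3:106219508-106219729 for Chil4, both on the minus strand and written 5′ to 3′. Capitals mark bases that differ between the genes or face a gap.
Chil3: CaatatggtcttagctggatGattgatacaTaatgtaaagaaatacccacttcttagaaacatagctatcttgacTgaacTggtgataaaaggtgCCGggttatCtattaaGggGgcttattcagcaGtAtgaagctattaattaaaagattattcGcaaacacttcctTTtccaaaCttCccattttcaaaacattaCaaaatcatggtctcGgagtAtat
Chil4: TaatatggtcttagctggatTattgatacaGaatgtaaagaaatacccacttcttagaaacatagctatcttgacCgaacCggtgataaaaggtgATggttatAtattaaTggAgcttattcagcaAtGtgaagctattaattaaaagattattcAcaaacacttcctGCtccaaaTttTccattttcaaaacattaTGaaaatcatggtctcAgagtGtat
Over 223 aligned columns, 201 were identical (90.1%), 20 were substitutions and 2 were gaps. Over the whole overlap of the windows, which takes in the first transcribed bases, identity was 91.9% of 273 columns.

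Short motifs were searched on both strands of the whole RefSeq promoter windows. The STAT-type motif TTCNNNGAA occurred once in each gene, within a stretch identical in both, and in 8.30% of all 32851 windows. The STAT6-type motif, the same half-sites with a spacer of 4, in 6.95% of windows, and the PU.1-type core GAGGAA, in 28.3%, had 0 matches in either gene. The TATA motif TATAAA, in 13.6% of windows, began 3 bases before the annotated start of Chil3 and 31 bases before that of Chil4, so the annotated starts are not at the same aligned base. The C/EBP-type motif TTGCNNAA, in 10.8% of windows, had 1 match in Chil4 and 0 in Chil3, and it overlapped none of the others. A match describes these letters only, and binding was not measured.

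Chil3 and Chil4 had the highest mean counts of all endogenous genes, 97272 and 78892 raw counts over the 12 samples, and Ctsd, the lysosomal protease cathepsin D, came next at 28285, followed by Mmp12, a macrophage elastase (16563), and Cstb, an inhibitor of cathepsins (10727). In run 2 Chil3 gave 180246, 151206 and 156769 raw counts in the rRELMa samples, against 151167, 161492 and 90715 in the PBS samples. In run 1 it gave 39153, 53547 and 37500 with rRELMa, against 39204, 52884 and 53385 with PBS. Raw counts of the treatments overlapped in both runs, and every run 2 sample lay above every run 1 sample. Chil4 gave 153423, 130673 and 133313 raw counts with rRELMa in run 2, against 120682, 130514 and 75007 with PBS. In run 1 it gave 27289, 39402 and 27846 with rRELMa, against 29774, 38458 and 40324 with PBS. In run 2 every rRELMa sample exceeded every PBS sample in raw counts, the closest pair being 130673 and 130514, whereas the run 1 groups overlapped. Raw counts also carry the totals of the samples, and how many other genes were separated in them was not counted. Totals of endogenous counts were 411169 to 765719 in run 2 and 179719 to 257415 in run 1, and the run 2 PBS sample with the lowest Chil3 and Chil4 counts also had the lowest total of that run. Background was negligible in the raw counts of both genes, since the limit set by the negative-control probes (mean plus 2 SD) was 16.1 to 31.1 counts per sample. It did matter for scaled values. Subtracting negative controls moved the log2 run difference in PBS from 0.47 to 0.23 for Chil3 and from 0.58 to 0.35 for Chil4. All 12 replicate pairs within groups were further apart than counting noise allows (chi-square test over the tested genes, largest p = 4.27e-12). That test cannot tell separate cultures from technical repeats, and each sample was counted as 1.

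Together the pair held more than 1 in 3 endogenous counts in every sample. Its share was 43.6%, 42.7% and 42.7% with rRELMa in run 2, against 41.4%, 41.5% and 40.3% with PBS. In run 1 it was 34.8%, 36.7% and 36.4% with rRELMa, against 34.5%, 36.7% and 36.4% with PBS. The groups were separate in run 2 and interleaved in run 1. Chil3 alone held 19.6% to 23.5% and Chil4 14.3% to 20.04%, while Ctsd held 3.54% to 7.96%. The widest 95% Wilson interval of a summed share was ± 0.222 percentage points, and such intervals cover counting error only. Probes differ in efficiency, so shares of counts are not shares of transcripts, and the sources used here do not say whether the probes tell these paralogs apart.

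**Figure D1:**
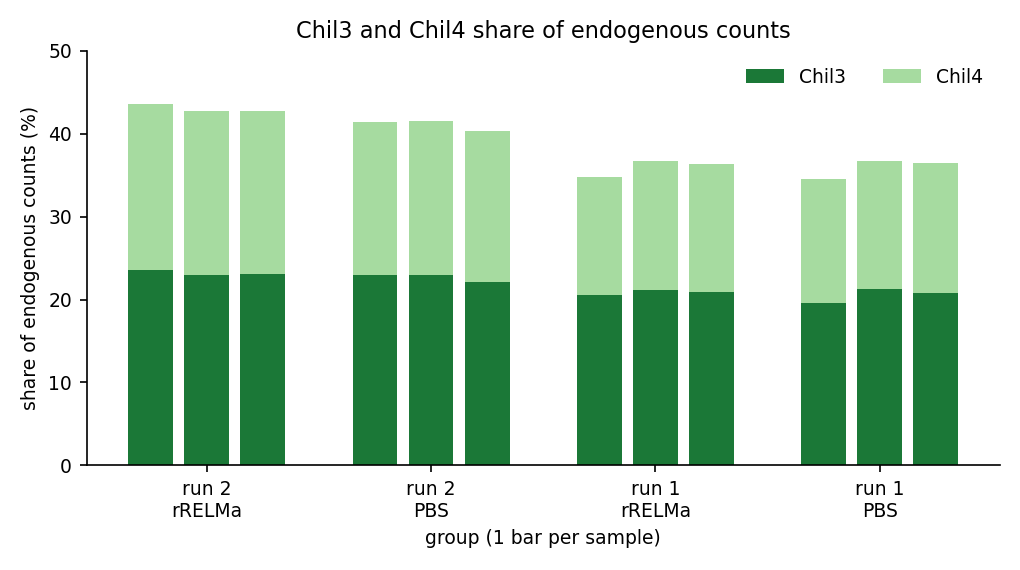
Share of endogenous counts (%, y axis) held by Chil3 (dark) and Chil4 (light), stacked, with 1 bar per sample. Bars of run 2 reach 40.3% to 43.6% and those of run 1 34.5% to 36.7%, with no overlap between runs.

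rRELMa moved neither gene past the test. After TMM scaling, which sets samples to a common scale through the bulk of the genes, Chil3 averaged 99960 ± 2742 counts with rRELMa and 93836 ± 1647 with PBS in run 2 (SD, n = 3 each). In run 1 it averaged 68448 ± 3630 with rRELMa and 67934 ± 4128 with PBS (SD, n = 3 each). With the run as a block, the Chil3 log2 fold change was 0.051 (SE 0.040, 95% interval -0.031 to 0.13, edgeR quasi-likelihood test, adjusted p = 0.779), or 3.61% in favour of rRELMa. Chil4 averaged 85478 ± 1584 with rRELMa and 76097 ± 586 with PBS in run 2, and 49692 ± 4254 with rRELMa and 50728 ± 2149 with PBS in run 1 (SD, n = 3 each). Its log2 fold change over both runs was 0.069 (SE 0.044, 95% interval -0.021 to 0.16, edgeR, adjusted p = 0.722). Leaving out 1 sample at a time gave 0.012 to 0.057 for Chil3, lowest without the first run 1 PBS sample, and 0.033 to 0.093 for Chil4, lowest without the third run 1 rRELMa sample. As percentages the intervals ran from -2.10% to 9.65% for Chil3 and from -1.48% to 11.8% for Chil4. In this comparison 0.241% of the 415 genes were called at an adjusted p under 0.05, and the one gene was Arg1.

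Within run 2 the scaled counts of both genes were separated by treatment. Chil3 stood at 101571, 96794 and 101516 scaled counts with rRELMa, against 94639, 94927 and 91941 with PBS. Chil4 stood at 86456, 83650 and 86327 with rRELMa, against 75554, 76718 and 76020 with PBS. All 3 rRELMa samples lay above all 3 PBS samples for each gene, as they did for 8.92% of the tested genes. The Chil4 log2 fold change was 0.17 (SE 0.055, unadjusted p = 0.00479, adjusted p = 0.367, edgeR), a difference of 12.3% with a 95% interval of 3.93% to 21.4%, and that of Chil3 was 0.091 (SE 0.053, adjusted p = 0.661). By unadjusted p Chil4 ranked 5th of the tested genes. By edgeR, DESeq2 and limma 0% of them were called, with 31 at an unadjusted p under 0.05 in edgeR. Chil4 passed the test when the run 2 samples were fitted alone (edgeR, log2 fold change 0.15, SE 0.026, adjusted p = 0.00510), a fit whose spread comes from those 6 samples only. Other scalings moved the value without a call, to 0.11 with library totals, 0.12 with reference genes (unadjusted p = 0.202) and 0.34 with positive controls.

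In run 1 neither gene was separated by treatment. Chil3 stood at 64257, 70576 and 70510 scaled counts with rRELMa, against 63543, 71735 and 68523 with PBS. Chil4 stood at 44786, 51933 and 52358 with rRELMa, against 48258, 52167 and 51758 with PBS. The groups overlapped for both, and the first rRELMa sample and the first PBS sample were the lowest of their groups. The log2 fold changes were 0.011 for Chil3 (SE 0.053, adjusted p = 0.971, edgeR) and -0.030 for Chil4 (SE 0.055, adjusted p = 0.928), in a comparison where 0.241% of genes were called. The sign for Chil3 turned with the scaling, being negative with DESeq2 size factors, positive controls or negative-control subtraction. The effect of rRELMa in run 2 minus that in run 1 was 0.20 for Chil4 (edgeR, SE 0.078, unadjusted p = 0.0167, adjusted p = 0.485) and 0.080 for Chil3 (SE 0.075, adjusted p = 0.942). For Chil4 this difference was 0.13 without the first run 1 rRELMa sample, and it ranged between 0.13 with library totals and 0.54 with positive controls. In this difference 0% of genes were called by edgeR, DESeq2 and limma, with 28 at an unadjusted p under 0.05 in edgeR.

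**Figure D2:**
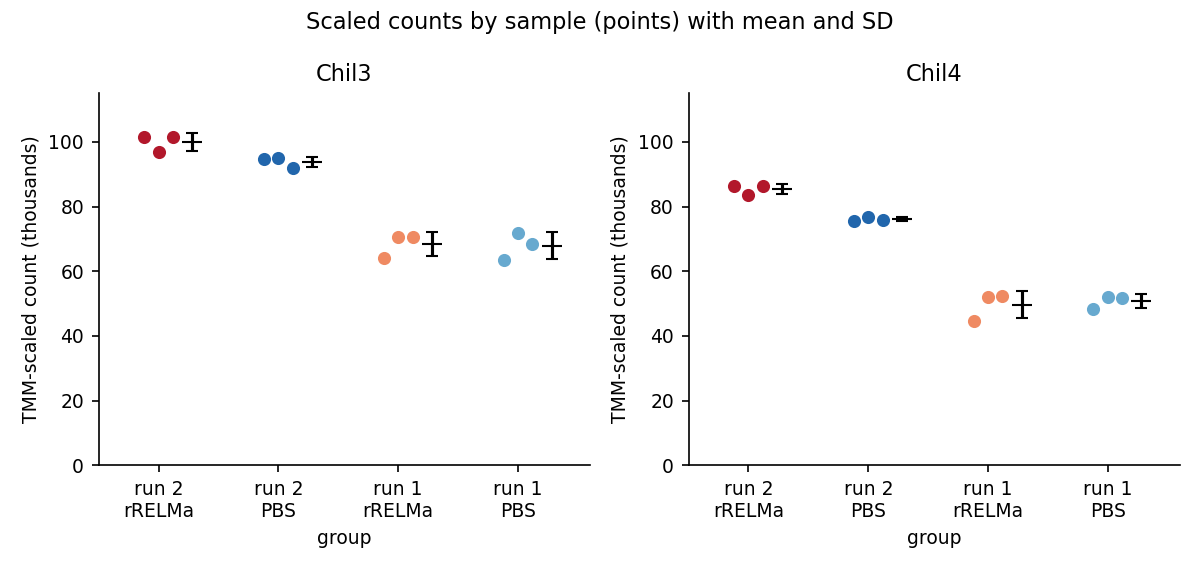
TMM-scaled counts (y axis) of Chil3 (left) and Chil4 (right) by group, with 1 point per sample and the group mean ± SD (n = 3) beside the points. Run 2 rRELMa points lie above run 2 PBS points in both panels, while the run 1 groups overlap.

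In run 2 these genes varied less among replicates than most, but they also had the highest counts. Relative counting noise is larger in genes nearer the minimum mean count of 20, and no genes of like count were compared. The coefficient of variation of scaled counts among the 3 samples was 2.74% for Chil3 and 1.85% for Chil4 in run 2 rRELMa, where the median over the tested genes was 7.26%. In run 2 PBS it was 1.76% and 0.770%, against a median of 8.15%. In run 1 it was 5.30% and 8.56% with rRELMa, beside a median of 10.3%, and 6.08% and 4.24% with PBS, beside a median of 8.94%. Of the 415 genes, 15 had a lower value than Chil4 in run 2 rRELMa and 178 in run 1 rRELMa.

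Shares divide each count by the endogenous total of its sample, as library-total scaling does, and that total includes the pair. They are therefore a choice of scaling as well. The summed share was 1.95 percentage points higher with rRELMa than with PBS in run 2 and 0.0903 points higher in run 1. Each was tested with an exact two-sided permutation test (p = 0.10 in run 2 and p = 0.90 in run 1), and with 3 samples against 3 the smallest p possible is 0.10. Over both runs, with treatment permuted within each run, the difference was 1.02 points (exact p = 0.125, adjusted p = 0.227 over the 20 tests of shares and ratios). For Chil4 alone it was 0.611 points (exact p = 0.115, adjusted p = 0.227), with 1.44 points in run 2 and -0.219 in run 1. For Chil3 alone it was 0.410 points (exact p = 0.23, adjusted p = 0.354).

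The ratio of Chil4 to Chil3 counts within a sample does not depend on any scaling. It was 0.851, 0.864 and 0.850 with rRELMa in run 2, against 0.798, 0.808 and 0.827 with PBS. In run 1 it was 0.697, 0.736 and 0.743 with rRELMa, against 0.759, 0.727 and 0.755 with PBS. Run 2 rRELMa samples all exceeded run 2 PBS samples, whereas in run 1 the groups overlapped and the rRELMa mean was the lower, 0.725 ± 0.0246 against 0.747 ± 0.0176 with PBS (SD, n = 3 each). The difference of the log2 ratio, rRELMa minus PBS, was 0.077 in run 2 (exact permutation p = 0.10, the smallest possible) and -0.044 in run 1 (exact permutation p = 0.30). Over both runs it was 0.016 (exact permutation p = 0.555, adjusted p = 0.694).

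**Figure D3:**
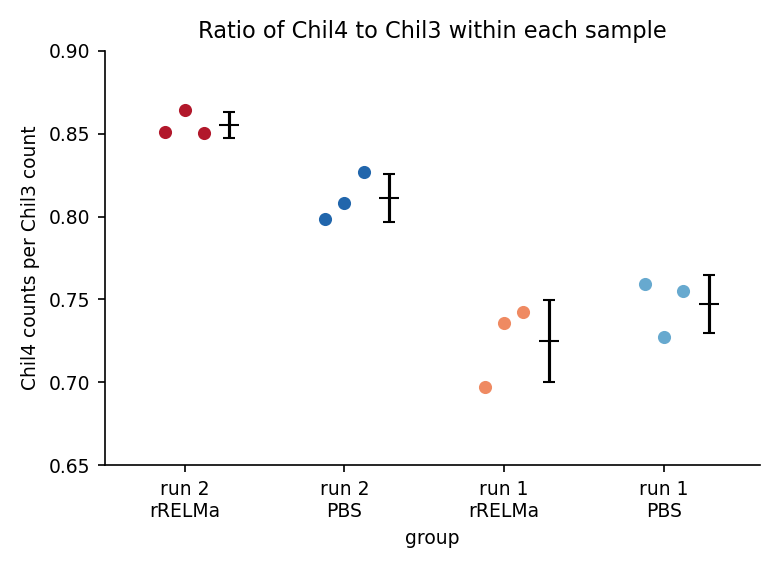
Chil4 counts per Chil3 count (y axis, from 0.65) by group, with 1 point per sample and mean ± SD (n = 3). All 6 run 2 samples lie at 0.798 or above and all 6 run 1 samples at 0.759 or below.

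Between runs both genes differed, and Chil4 more than Chil3. In PBS samples Chil3 was 38.1% higher in run 2 than in run 1 (log2 difference 0.47, SE 0.053, edgeR, adjusted p = 8.30e-09) and Chil4 was higher by 0.58 on the log2 scale (95% interval 38.7% to 62.2%, SE 0.055, adjusted p = 1.41e-10). In rRELMa samples Chil3 was 46.0% higher in run 2 (0.55, SE 0.053, edgeR, adjusted p = 3.23e-10) and Chil4 was 72.0% higher (0.78, SE 0.055, adjusted p = 2.47e-13). Every run 2 sample lay above every run 1 sample for both genes in both treatments, as it did for 31.1% of the tested genes in PBS, 33% in rRELMa and 27.7% in both. A rise between runs was common, since 29.9% of genes were called higher in run 2 in PBS and 29.9% in rRELMa. By signed log2 difference Chil4 ranked 57th and Chil3 82nd of 415 in PBS, so many genes had larger differences. The log2 ratio of Chil4 to Chil3 was 0.18 higher in run 2 over both treatments (exact permutation p = 0.005, the smallest possible, adjusted p = 0.025), and the summed share was 6.11 percentage points higher (exact permutation p = 0.005, adjusted p = 0.025). In lysates of many cells, fewer cells of a type and less RNA per cell cannot be told apart, and what separates the runs in the assay and in the cells cannot be told apart either.

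The size of the run difference depended on the scaling. In PBS, Chil3 and Chil4 stood at 0.52 and 0.63 log2 with DESeq2 size factors in edgeR, at 0.26 and 0.38 with endogenous totals without the pair, and at 0.14 and 0.26 with library totals. With 20 reference genes as the scale they stood at 0.17 and 0.28, and Chil3 was no longer called (edgeR, adjusted p = 0.108 in PBS and 0.0630 in rRELMa), whereas Chil4 was (adjusted p = 0.00670 and 0.000141). With negative controls subtracted they were 0.23 and 0.35, without the count minimum 0.83 and 0.95, and with positive controls 2.08 and 2.20. The median over all tested genes shifted too, to -0.35 with library totals, -0.33 with reference genes, -0.23 with totals without the pair and 1.59 with positive controls, against -0.03 with TMM. Relative to that median Chil3 was 0.49 to 0.50 and Chil4 0.61 higher under TMM and these 4 settings, but 0.22 and 0.34 higher with negative controls subtracted and 1.02 and 1.14 without the count minimum. The 4 settings change only the scaling factor of each sample and so move all genes nearly alike. Their near-equal gaps to the median are therefore no separate evidence. In run 2 PBS, 124 genes were called higher and 149 lower with TMM. The split was 63 higher and 206 lower on the reference-gene scale, 64 and 217 on the library-total scale, 81 and 197 on the scale of totals without the pair, and 366 and 20 on the positive-control scale.

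**Figure D4:**
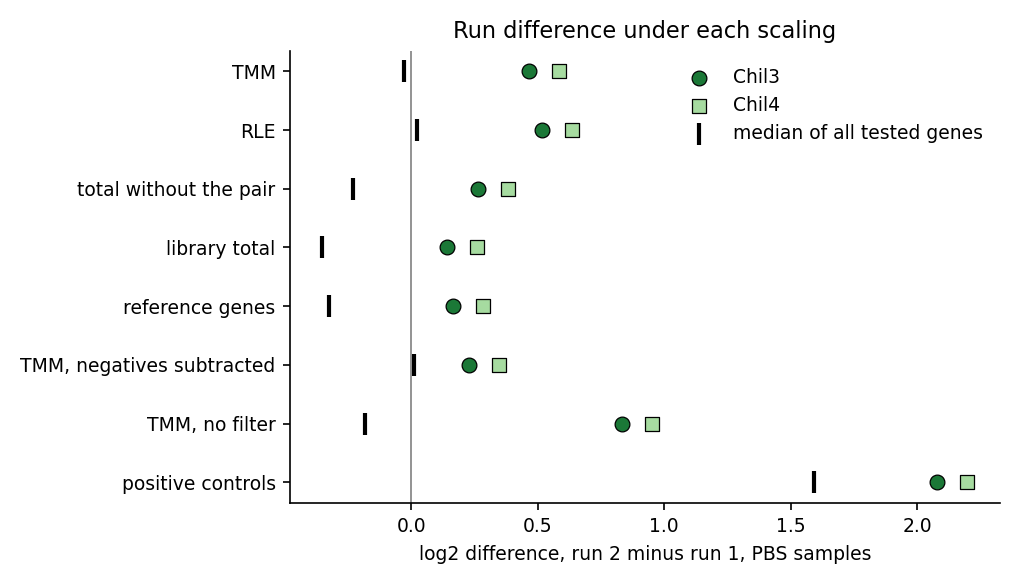
Log2 difference between run 2 and run 1 in PBS samples (x axis) under 8 settings, for Chil3 (circles), Chil4 (squares) and the median of all tested genes (bars). Chil3 ranges from 0.14 to 2.08 and Chil4 from 0.26 to 2.20, and Chil4 lies to the right of Chil3 in each row. Scaling moves both genes alike, so this order follows from their counts and not from the setting.

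The counts of the pair reached beyond the highest positive control in run 2 and stayed below it in run 1. In run 2 Chil3 was at 1.96 to 2.84 times the count of that control and Chil4 at 1.60 to 2.42 times. In run 1 Chil3 was at 0.358 to 0.498 times and Chil4 at 0.250 to 0.362 times. The control itself gave 46341 to 75625 counts in run 2 and 90179 to 118404 in run 1. The ratio of the highest to the second-highest positive control was 4.80 to 5.01 in run 2 and 5.91 to 6.10 in run 1. Whether high counts were read differently between runs was not tested. The part of this control difference in the higher ratio of Chil4 to Chil3 in run 2 was not tested either.

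**Figure D5:**
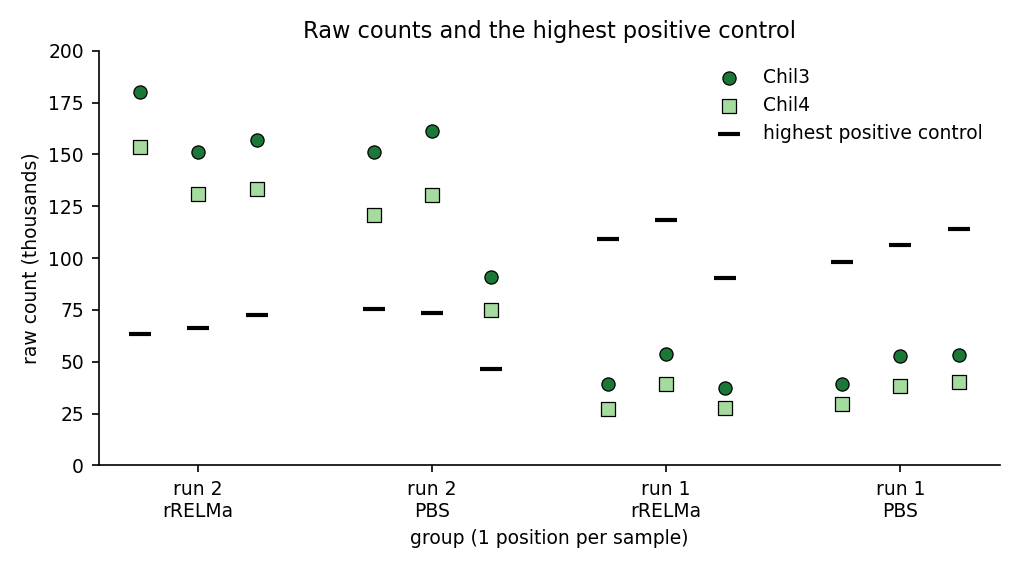
Raw counts (y axis) of Chil3 (circles), Chil4 (squares) and the highest positive control (bars), with 1 position per sample. Both genes lie above the control in all 6 run 2 samples and below it in all 6 run 1 samples.

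No other member of the chitinase family list was on the panel, so 2 of 12 listed names were measured. The type 2 cytokine list, which holds the Chil3 inducers Il4 and Il13 beside other cytokines of type 2 responses, was close to the negative controls, whose mean was 7.62 to 15.0 counts per sample. Il13 gave 7 to 21 raw counts, Il4 1 to 8, Il5 1 to 7, Il9 2 to 10, Il25 1 to 9 and Il33 1 to 11. At this depth these cytokine transcripts were not detectable in the sorted cells. Retnla, the gene lacking in these mice, gave 5 to 18 raw counts.

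Of 32 listed genes of alternative activation, which excludes the pair, 22 were on the panel and 18 were tested. With rRELMa, where 0.241% of all tested genes were called, 0 rose and 1, Arg1, fell (edgeR, adjusted p = 0.00265, log2 fold change -0.55), and 17 did not pass the test. Their median log2 fold change was 0.05, beside 0.01 over all tested genes. Arg1 averaged 137 scaled counts with rRELMa and 199 with PBS in run 1. In run 2 it averaged 18.2 with rRELMa and 26.8 with PBS, near the background limit of 16.1 to 31.1 raw counts per sample. Among those that did not pass, the fatty acid transporter Cd36 had a log2 fold change of -0.086, the mannose receptor Mrc1 0.091, the eosinophil attractant Ccl24 0.13, the ligand Pdcd1lg2 of the receptor PD-1 0.22, the transcription factor Egr2 0.12 and the transcription factor Myc 0.12, against 0.051 for Chil3 and 0.069 for Chil4. On the negative side Tgm2, a transglutaminase, had -0.064, Ccl17, a chemokine, -0.018 and Stat6, the transcription factor activated by IL-4, -0.0014.

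Between runs the same list split, with Chil3 and Chil4 on the side of the genes higher in run 2. In PBS 6 of the 18 were called higher in run 2 and 8 lower, with a median log2 difference of -0.31 beside -0.03 over all tested genes, in a comparison where 65.8% of genes were called, 29.9% higher and 35.9% lower. In rRELMa 6 were called higher and 7 lower, where 63.4% of genes were called, 29.9% higher and 33.5% lower. The higher ones were Mrc1 (log2 difference 1.98), Cd36 (1.53), Pparg, the lipid-sensing nuclear receptor of alveolar macrophages (0.83), Egr2 (0.60), Ccl22, a chemokine (0.43), and Stat6 (0.41). The lower ones were Arg1 (-2.88), Ccl24 (-1.45), Socs1, an inhibitor of cytokine signalling (-1.18), Jak3, a kinase of cytokine receptors (-1.02), Clec7a, the beta-glucan receptor (-0.69), Pdcd1lg2 (-0.63), Il4ra, the receptor chain for IL-4 and IL-13 (-0.59), and Klf4, a transcription factor (-0.53). Of these, Jak3, Socs1 and Pdcd1lg2 had low counts, near the background limit of 16.1 to 31.1 raw counts per sample. Jak3 averaged 33.7 scaled counts in run 1 PBS and 16.8 in run 2 PBS. Socs1 averaged 47.0 and 21.6, and Pdcd1lg2 44.7 and 28.1. Any background in such counts is divided by larger scaling factors in run 2 than in run 1. Ccl22 was not called without the first run 1 PBS sample (0.32) or the second run 2 PBS sample (0.22), and Pdcd1lg2 was not called without the first (-0.55) or the third (-0.52) run 1 PBS sample. Arg1 also had low counts in run 2, near the same background limit. It averaged 26.8 ± 0.663 scaled counts in run 2 PBS and 199 ± 14.6 in run 1 PBS (SD, n = 3 each), opposite in direction to Chil3 and Chil4. With positive controls as the scale 15 were called higher and 1, Arg1, lower, and 7 of the lower ones turned positive, while 88.2% of all tested genes were called higher and 4.82% lower on that scale. With reference genes or library totals the split was 3 higher and 10 lower, beside 15.2% higher and 49.6% lower over all tested genes with reference genes, and 15.4% and 52.3% with library totals.

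Markers of other cells moved between runs as well. Summed scaled counts of the 10 other alveolar macrophage markers, all 10 past the count minimum, were 5092 to 5485 in run 2 and 3570 to 3910 in run 1, without overlap, and Lpl alone gave 2008 of them on average in run 2 PBS and 1800.1 in run 1 PBS. In PBS, where 29.9% of all tested genes were called higher in run 2 and 35.9% lower, 6 of the 10 were called higher. Among them were Siglecf (log2 difference 1.75), Fabp4 (1.60) and Itgax (1.25). Ear3 (-1.56) and Siglec1 (-0.36) were called lower, and Marco (0.031) and Ear6 (0.18) were not called. Siglecf averaged 28.2 scaled counts in run 1 PBS, near the background limit of 16.1 to 31.1 raw counts per sample. Of 9 markers of other macrophages or monocytes, 7 past the minimum, 5 were called lower in run 2 PBS and 0 higher. Their summed scaled counts were 1180 to 1382 in run 2 and 1719 to 1896 in run 1. Those of 7 dendritic cell markers, 6 past it, were 697 to 922 in run 2 and 528 to 702 in run 1. These split as well, with Ccr7 (1.14), Batf3 (0.47) and Ccl22 (0.43) called higher in run 2 PBS and Clec9a called lower (-2.08). Flt3 (-0.17) and Irf8 (0.11) were not called. Batf3 averaged 38.2 scaled counts in run 1 PBS and Clec9a 24.6 in run 2 PBS, both near the background limit. The 11 neutrophil markers gave 612 to 800.1 in run 2 and 596 to 684 in run 1, with 2 past the minimum and Ly6g, the defining one, at a mean of 4.92 raw counts. The 2 past it split, with Mmp8 called higher in run 2 PBS (1.11) and S100a8 called lower (-0.63). Cdh1, the one epithelial marker on the panel, gave 22.3 to 40.1 in run 2 and 11.3 to 21.8 in run 1, near background. The 2 endothelial or stromal markers, 1 past the minimum, gave 866 to 981 in run 2 and 2060 to 2474 in run 1. Nearly all of this was Cav1, with 897 scaled counts on average in run 2 PBS and 2170 in run 1 PBS. Cdh5, the other marker, had a mean of 16.9 raw counts, near background. Eosinophil markers (4), mast cell or basophil markers (4) and T, NK or B cell markers (2) had none past the minimum. The part of these shifts in the run difference of Chil3 and Chil4 was not tested.

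Chil3 and Chil4 were correlated on log2 TMM-scaled counts over the 6 samples of each run, with both treatments pooled, and of these tests only Pearson's r in run 2 passed after adjustment. Pearson's r was 0.92 in run 2 (exact permutation p = 0.00694, adjusted p = 0.0278 over 4 correlations; Spearman's rho 0.94, exact p = 0.0167, adjusted p = 0.0667 over the 4) and 0.87 in run 1 (exact permutation p = 0.0389, adjusted p = 0.0778; rho 0.77, exact p = 0.103, adjusted p = 0.206). Without the 2 samples farthest from the median of Chil3, r was 0.75 in run 2 and 0.69 in run 1, over 4 samples. With the mean of each treatment removed and Chil4 permuted within treatments, r was 0.82 in run 2 (exact permutation p = 0.139, adjusted p = 0.139 over 2 tests) and 0.91 in run 1 (exact permutation p = 0.0556, adjusted p = 0.111), so the run 2 call did not hold within treatments. Both genes are divided by the same scaling factor, which by itself adds to their correlation. As shares of endogenous counts, r was 0.69 in run 2 (exact permutation p = 0.0597, adjusted p = 0.0796; rho 0.60, exact p = 0.242, adjusted p = 0.322) and 0.57 in run 1 (exact permutation p = 0.257; rho 0.43, exact p = 0.419), and in run 2 it was 0.086 without the farthest 2, so it rested on those samples. The runs were not pooled, since they formed separate clusters.

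The genes most like each member were named by the lower of the within-run r values on log2 scaled counts, with treatments together, as a description. For Chil3 they were H2-D1, a class I MHC heavy chain (lower r 0.90), Chil4 (0.87), Cd276, a member of the B7 family (0.82), Emp1, an epithelial membrane protein (0.81), and Tgfb1, a cytokine (0.79). For Chil4 they were H2-D1 (0.92), Chil3 (0.87), Emp1 (0.74), Mob3c (0.73) and Cd276 (0.72). By this lower r, over 6 samples in each run, H2-D1 stood ahead of the paralog for both members, but only through run 1. In run 2 the r of Chil3 was 0.92 with Chil4 and 0.90 with H2-D1, and that of Chil4 was 0.92 with both. The log2 difference between runs of such genes could be unlike that of the pair, with 0.051 for H2-D1 (not called), 0.49 for Tgfb1 (called) and -0.54 for Cd276 (not called) in PBS.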

How the data were processed

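The deposited values were whole-number barcode counts per probe for 12 samples, read as raw counts because totals and control probes differed between samples; the lowest value was 1. Per the labels' protocols, the nCounter XT assay was hybridised for 18 h at 65 °C. The counting software and its quality checks were not given in the sources used here. Groups came from the sample titles. Of 768 probes, 6 positive controls, 8 negative controls and 20 reference genes were left out of the tests, and so were 319 genes with a mean count under 20. Differences were tested mainly by the quasi-likelihood method of edgeR (edgeR 4.0.16, limma 3.58.1, DESeq2 1.42.0, R 4.3.3) on the counts with TMM scaling, with run as a blocking term across the 12 samples, or with 1 coefficient per group for effects within runs, their difference and run differences. P-values were adjusted by Benjamini-Hochberg over the 415 genes and called under 0.05. Shares and ratios were tested with exact permutations within strata, 400 arrangements over both runs or treatments and 20 within a run. Promoters were aligned with Biopython 1.88. On simulated data for the main comparison, the test called 98% and 96% of 50 genes each with a true log2 fold change of -0.5 and 0.5, and 3.26% of 215 unchanged genes. Spreads were those fitted to these data, and another 50 genes each had a change of -1 and 1. So many changed genes loosen the adjusted cut-off, whereas the real comparison called 1 gene. Changes as small as those of Chil3 and Chil4 were not simulated, so these rates do not give the power to detect them.

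The members, gene lists and comparisons were chosen with earlier results of these data known. Named genes followed a rule: the pair, the short lists in full, called list members or otherwise the 5 per direction with the smallest unadjusted p, the 5 most alike genes per member and the most abundant genes. The test of the difference of effects on shares and ratios, and the correlations on shares and with treatment means removed, were added after the data were seen. Alternatives covered scaling, tool, count minimum, background subtraction, run term, replicate block, fits within runs and leaving out each sample.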

Additional observations from a re-analysis of the deposited data

Results flagged for a closer look

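The log2 ratio of Chil4 to Chil3 had opposite signs of its rRELMa difference in the runs, 0.077 in run 2 and -0.044 in run 1, and neither difference passed the test (adjusted exact permutation p = 0.222 and 0.40). All 3 rRELMa samples of run 2 lay above the PBS mean of run 2, and all 3 rRELMa samples of run 1 lay below the PBS mean of run 1. The difference of the effects, run 2 minus run 1, was 0.12. Its exact permutation p, with treatment permuted within each run, was 0.015, and it did not pass the adjustment over 20 tests (adjusted p = 0.06). That test asks whether the effects are both absent, and the positive-control values given with the pair's counts differ between runs as well. Groups of 3 were too small for a test of single outlying samples.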

How the results depend on the processing

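Both genes kept their direction for rRELMa over both runs, for rRELMa in run 2 and for run 2 against run 1 under all settings tried, and only the reference-gene scale ended a call between runs, that of Chil3 (0.17 in PBS, 0.19 in rRELMa). Chil4 in run 2 was also called with same-numbered samples as a replicate block (log2 fold change 0.17, adjusted p = 0.0123), as 1 called gene, and when run 2 was fitted alone (0.15, 1 called gene). Same-numbered samples did not deviate together over the tested genes (correlations -0.078 to -0.028 over 6 pairs). With 3 samples per group this cannot settle whether the numbers pair samples. The block changed no other call, and no such fit exists for run against run, because same-numbered samples were matched within runs. In run 1 Chil3 turned to -0.013 with DESeq2 size factors or DESeq2, to -0.014 with negative-control subtraction and to -0.17 with positive controls; per positive-control count its difference was -0.037 and that of the pair -0.071, and the summed share was -0.0068 points with negative controls subtracted. Leaving out 1 sample gave values between -0.063 and 0.037 for Chil3 in run 1 and between -0.12 and 0.022 for Chil4 in run 1, run 1 share differences of -0.16 to 0.67 points (Chil3), -0.45 to 0.20 (Chil4) and -0.60 to 0.68 (pair), and a difference of the Chil3 share effects of -0.16 to 0.67. The difference of the log2 ratio effects ran from 0.092 to 0.14 and passed once, without the second run 1 PBS sample (0.14, adjusted p = 0.04). The r of the pair in run 2 was 0.69 on shares and 0.82 with treatment means removed. Over all genes, the main comparison called 2 without the count minimum and 0 without the run term (4 unadjusted), where Arg1 stood at -0.57 and 0 list genes were called. Run 1 called 0 with reference genes, library totals, totals without the pair, DESeq2, limma or no minimum, 2 with negative controls subtracted, and 0 to 1 without 1 sample. Without the minimum 414 genes differed between runs in PBS and 420 in rRELMa, and with positive controls 395 in rRELMa. With positive controls Ccl24 (0.17), Clec7a (0.92), Il4ra (1.03), Jak3 (0.60), Klf4 (1.09), Pdcd1lg2 (0.99) and Socs1 (0.45) turned positive between runs. The cause was not tested.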
